A study of Homo sapiens with 12 samples.

Results

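5-fluorouracil (5-FU) and cytarabine, a pair of pyrimidine antimetabolites, were compared directly in H460, an established line of human lung cancer with wild-type p53. The comparison uses 6 of the 12 two-channel arrays of the series, those labelled as 5-FU (4 arrays) or cytarabine (2 arrays), and was defined by these labels and not by any measured value. Total RNA of treated cells was hybridised against RNA of untreated H460 cells on each array. 5-FU was given at 1 µM and cytarabine at 0.2 µM, each for 24 h, so the doses differ and every difference below is one between these treatments. 5-FU replicates 1 and 2 were each hybridised in both orientations, with treated RNA in channel 2 on one array and in channel 1 on the other. Both cytarabine arrays carry treated RNA in channel 1, as do the arrays of cisplatin (5 µM), paclitaxel (5 nM) and cytochalasin D (0.2 µM), 2 each. The labels do not say whether replicates were separate cultures, so p-values measure only the spread between these samples, nor whether untreated RNA was shared between drugs.

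5-FU is a fluorinated uracil that cells convert into nucleotides. One of these blocks thymidylate synthase, the enzyme that makes thymidylate from deoxyuridylate with a folate cofactor, and others enter RNA and DNA. Cytarabine is a cytosine nucleoside with arabinose as its sugar. It enters cells through nucleoside carriers, is phosphorylated by deoxycytidine kinase and slows DNA synthesis when its triphosphate is built into the growing strand.

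Each value is a log ratio of treated over untreated RNA, taken as log2 since the base is not stated, centred on the median of its array. It ranks a gene within its array and gives no level, so the defining markers of the cell line could not be checked for presence. The direction is likely rather than stated. The sign common to all arrays was set so that the median of a list of p53 targets is positive in cisplatin, a drug outside this comparison, where it was 0.68 with 20 of 22 targets above 0. The 5-FU arrays hold 4357 to 6411 of 8170 probes and the cytarabine arrays 6989 and 7299. Across features Pearson's r was 0.821 between the cytarabine replicates, 0.623 to 0.679 for 5-FU arrays with the same channel assignment and 0.486 to 0.527 for those with opposite channels (features are not independent replicates). Cytarabine arrays correlated with the 5-FU arrays of the same orientation at 0.108 to 0.121, with cisplatin at 0.363 to 0.403, and with paclitaxel and cytochalasin D at 0.655 to 0.732. What these arrays share beside the drugs, such as a common untreated RNA, was not tested.

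Differences were tested with limma. The spread was estimated jointly over all drugs of the series, so p-values also rest on the cisplatin, paclitaxel and cytochalasin D arrays. The averaged comparison takes the mean of the 2 orientations of each 5-FU replicate and sets 2 replicates a side, over features with all 6 values. Cytarabine was hybridised in 1 orientation only, so a channel effect stays in its ratio in the averaged comparison. A matched comparison sets the 2 5-FU arrays with treated RNA in channel 1 against the 2 cytarabine arrays, so that a channel effect common to both sides cancels. They share arrays and are not independent of each other. "Higher" and "lower" stand for 5-FU relative to cytarabine with a Benjamini-Hochberg adjusted p under 0.05 over all features tested, differences are given as log2 ± SE from the averaged comparison unless stated, and groups that do not overlap have all 4 5-FU arrays on 1 side of both cytarabine arrays.

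Expression ratios differed between the 5-FU and the cytarabine arrays. Whether this came from the drugs or from other differences between the sets of arrays was not tested. Of 3574 features tested, 413 (11.6%) were higher and 638 (17.9%) lower in 5-FU than in cytarabine, 29.4% in all. The matched comparison tested 4931 features and called 534 (10.8%) higher and 768 (15.6%) lower, 26.4% in all. In both comparisons with the same sign, 270 features (7.55%) were higher and 464 (13%) lower, 20.5% in all. The median difference of all features was -0.05. On 574 features (16.1%) every 5-FU array lay above both cytarabine arrays, and on 957 (26.8%) every one lay below. Without cytarabine replicate 2 the averaged comparison called 249 higher and 403 lower, of which 230 and 374 were among the features called with it.

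A difference between the treatments can come from either side, and both occurred. Among the 270 higher features, 88 stood further from untreated in 5-FU, with a median of 0.43 against -0.08 in cytarabine. The other 182 stood further in cytarabine, with a median of 0.06 in 5-FU and -0.57 in cytarabine. Among the 464 lower features, 235 read a median of -0.72 in 5-FU and -0.05 in cytarabine, whereas 229 read -0.06 in 5-FU and 0.39 in cytarabine. The medians of the 4 sets in paclitaxel and cytochalasin D were, in the same order, 0.05, -0.31, -0.06 and 0.11. Of the features that have the values, all 4 arrays of these drugs lay nearer to cytarabine than to 5-FU on 52 of 88, 59 of 181, 188 of 231 and 17 of 220, again in that order. The sets were formed from the 5-FU and cytarabine values themselves. A ratio near 0 therefore counts as nearer to whichever treatment stood closer to untreated, and the counts do not test likeness to either treatment. Cytarabine itself differed from the mean of paclitaxel and cytochalasin D on 176 of 6531 features (2.69%), a comparison added after the data were seen. In bulk RNA a strong change in some cells and a weaker change in all of them cannot be told apart.

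**Figure D1:**
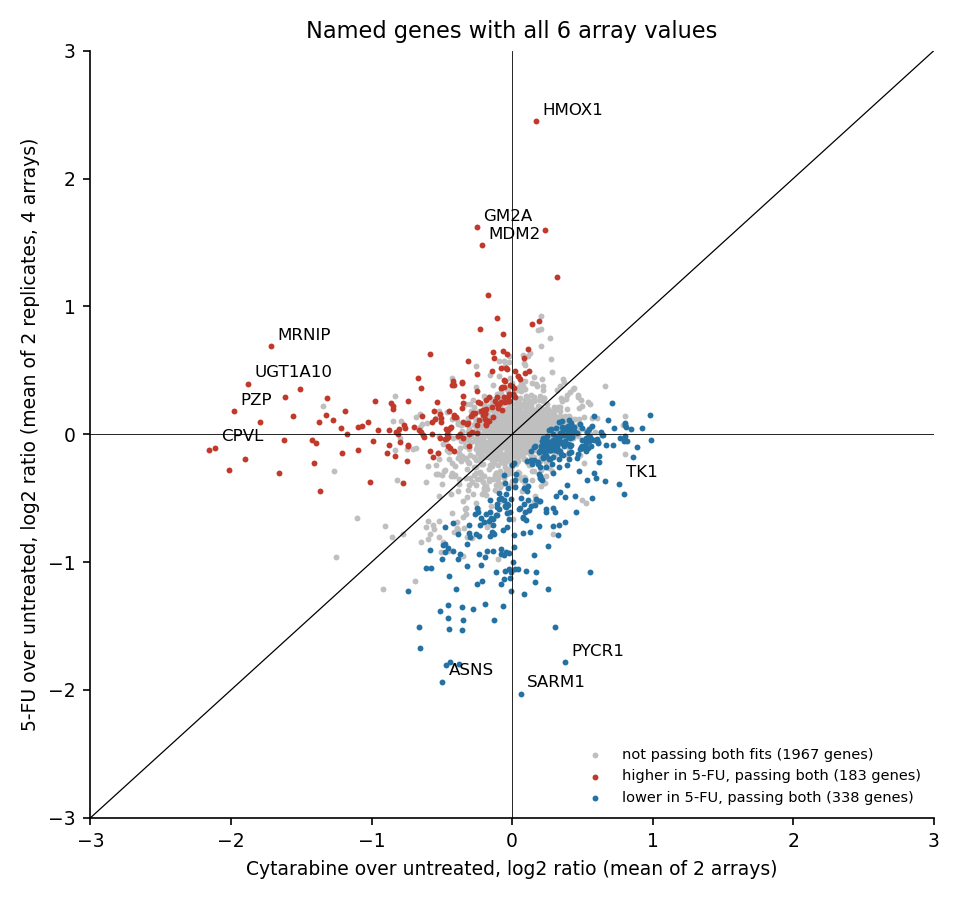
Mean log2 ratio over untreated for each named gene with all 6 values, cytarabine on the x axis (2 arrays) and 5-FU on the y axis (2 replicates, 4 arrays). The line marks equal ratios; red points are higher and blue points lower in 5-FU in both comparisons. HMOX1 at 2.45 in 5-FU and 0.17 in cytarabine lies far above the line near the y axis, while UGT1A10, PZP and CPVL lie far to the left, near 0 in 5-FU and near -2 in cytarabine.

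Pyrimidine and folate metabolism is the pathway into which both drugs feed. Of 51 genes listed, 25 are on the array and 11 were tested: 1 was higher and 4 were lower in 5-FU, with a median difference of -0.17, beside 11.6% higher and 17.9% lower among all features. TK1, the cytosolic thymidine kinase that salvages thymidine, read -0.84 and -0.42 on the channel 2 arrays and -0.21 and -0.08 on the channel 1 arrays of 5-FU, and 0.79 and 0.73 in cytarabine. All 5-FU arrays were below 0 and both cytarabine arrays above it. The difference was -1.15 ± 0.14 (adjusted p = 0.00041), and -0.91 in the matched comparison (adjusted p = 0.00182). TK1 also read 0.60 and 0.82 in cisplatin, and a mean of -0.01 over paclitaxel and cytochalasin D.

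SLC29A1, the equilibrative nucleoside carrier that takes up cytarabine, was the member that was higher. It read -0.21, 0.24, 0.54 and 0.16 on the 5-FU arrays and -0.48 and -0.62 in cytarabine, with no overlap (0.73 ± 0.09, adjusted p = 0.000409). The related carrier SLC29A2 differed by -0.01 and did not pass. The mitochondrial folate enzymes MTHFD2 and SHMT2, which also belong to the amino acid response list below, were lower in 5-FU. MTHFD2, a dehydrogenase and cyclohydrolase, read -1.55, -1.33, -2.23 and -2.03 in 5-FU and -0.52 and -0.37 in cytarabine (-1.34 ± 0.11, adjusted p = 7.18e-05). SHMT2, which transfers a carbon from serine to folate, read -0.89 and -0.88 with treated RNA in channel 2 and -0.38 and -0.43 in channel 1, against 0.08 and 0.07 (-0.73 ± 0.07, adjusted p = 0.000191). CAD, which starts pyrimidine synthesis de novo, was lower at -0.42 in the averaged comparison, but read -0.17 in the matched one (adjusted p = 0.2), and its call ended without 5-FU replicate 2 (-0.29) or cytarabine replicate 2 (-0.35). CAD and SLC29A2 were chosen after their values were seen.

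For the enzymes that act on the drugs themselves the arrays say little. TYMS, which encodes thymidylate synthase, has 2 of the 4 5-FU values, 0.35 on the channel 2 array of replicate 2 and -0.26 on the channel 1 array of replicate 1, against -0.27 and -0.24 in cytarabine, and could not be tested. DPYD, the enzyme that degrades fluorouracil, differed by 0.23 (95% interval -0.05 to 0.51, adjusted p = 0.189). CDA, which deaminates cytarabine, has 1 5-FU value, 0.14, beside -0.17 and -0.20. UMPS, which can convert fluorouracil to its nucleotide, read -0.09 and 0.02 in 5-FU and -0.02 and -0.35 in cytarabine. RRM2B, a p53-responsive subunit of ribonucleotide reductase, read -0.01 and 0.40 against -0.09 and 0.15 and differed by 0.17 in the matched comparison (interval -0.19 to 0.52). No probe was named for DCK, RRM1, RRM2 or PCNA, so these are not analysed here.

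**Figure D2:**
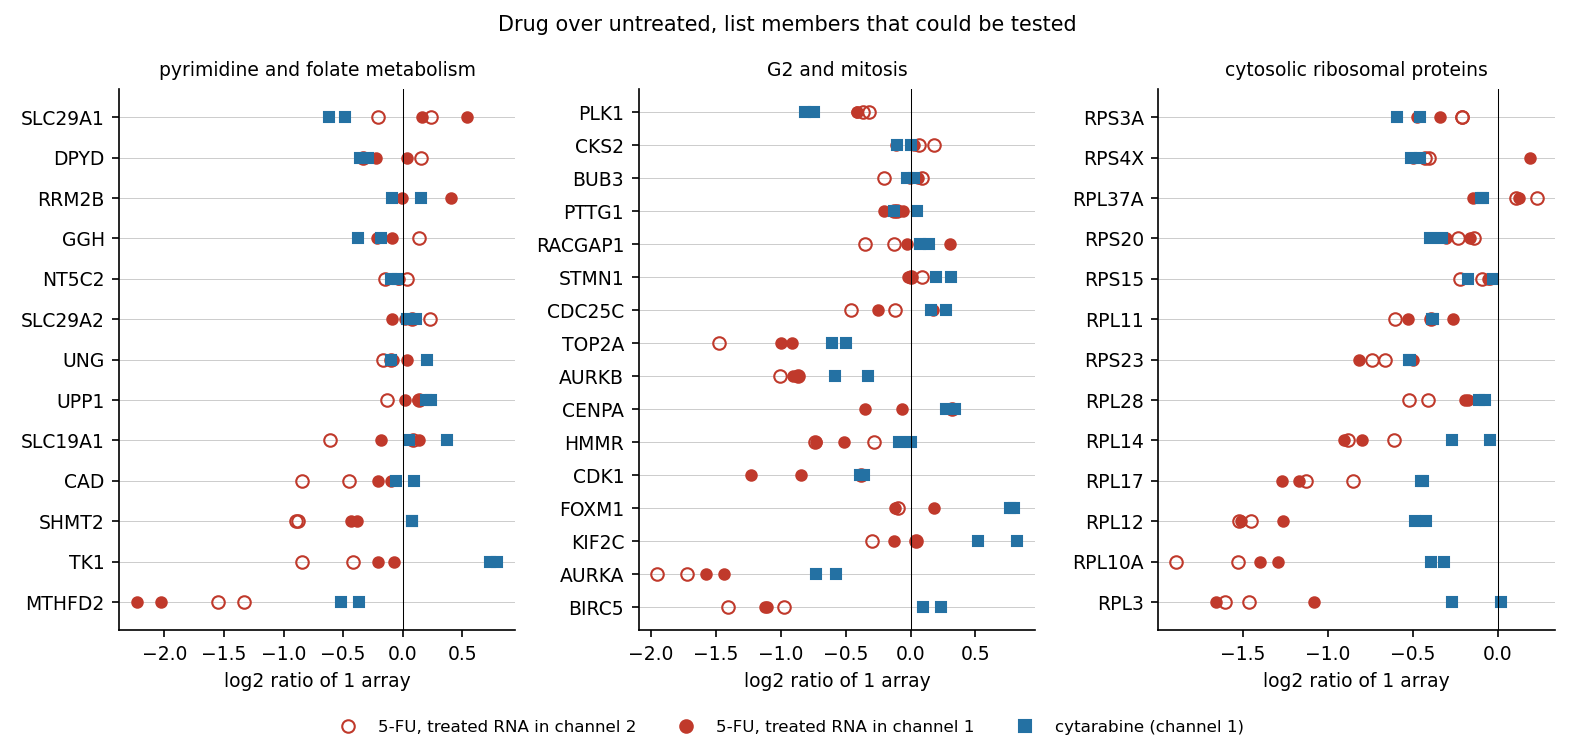
Log2 ratio over untreated on each array (x axis) for testable members of 3 lists, with 5-FU as circles (open for treated RNA in channel 2, filled for channel 1) and cytarabine as squares; 1 Y-linked ribosomal gene is not drawn. TK1, FOXM1 and KIF2C lie above 0 in cytarabine and near or below 0 in 5-FU, and RPL3, RPL10A and RPL12 lie below -1 on every 5-FU array.

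p53 targets stood higher in 5-FU. Of 39 listed, 24 are on the array and 10 were tested: 7 were higher and 1 lower, with a median difference of 0.50 (0.40 in 5-FU, -0.10 in cytarabine), beside 11.6% higher and 17.9% lower among all features. The 7 became 3 without 5-FU replicate 1 and 4 without cytarabine replicate 1, and the lower call did not hold without any of the 4 replicates. In the matched comparison 6 of 16 were higher and 2 lower, against 10.8% and 15.6% of all features.

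CDKN1A, the inhibitor of cyclin-dependent kinases through which p53 stops the cycle, has values on the channel 1 arrays only. It read 2.41 and 2.57 in 5-FU and 0.19 and 0.21 in cytarabine, a matched difference of 2.29 (interval 1.65 to 2.93, adjusted p = 0.000832), and 3.12 and 4.20 in cisplatin. MDM2, the ubiquitin ligase that p53 induces and that limits it, read 1.80, 1.63, 1.15 and 1.35 in 5-FU and -0.39 and -0.04 in cytarabine (1.70 ± 0.12, adjusted p = 3.68e-05). MDM2 did not overlap between the treatments, and on 16.1% of all features every 5-FU array also lay above both cytarabine arrays. For CDKN1A the 5-FU values of channel 1 lay above both cytarabine arrays. In these genes the cytarabine arrays lay between -0.39 and 0.21.

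TOB1, an antiproliferative protein, read 1.76, 0.99, 1.02 and 0.59 against -0.16 and -0.19 (1.26 ± 0.17, adjusted p = 0.000787). DDB2, which recognises ultraviolet lesions, read 1.09, 0.99, 0.43 and 0.77 against -0.36 and -0.10 (1.05 ± 0.10, adjusted p = 0.000108). Its partner in nucleotide excision repair, XPC, was testable only in the matched comparison and was higher by 0.82 (adjusted p = 0.00273). The oxidoreductase TP53I3 was higher by 0.66 ± 0.17, a call that ended without 5-FU replicate 1 (0.41) or cytarabine replicate 1 (0.55). Further members passed the averaged comparison only: the phosphatase PPM1D at 0.54 (0.04 when single probes were used), EI24 at 0.47 and the cyclin CCNG1 at 0.29. Each of these 3 lost its call without at least 3 of the 4 replicates, with adjusted p between 0.0538 and 0.161. CCNG1 arrays also overlapped, at -0.09, 0.05, -0.36 and -0.57 in 5-FU and -0.48 and -0.59 in cytarabine.

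Not all targets followed. TNFRSF10C, a decoy receptor for the death ligand TRAIL, was lower by -0.23 ± 0.07 (adjusted p = 0.029), with 5-FU arrays between -0.06 and 0.11 and cytarabine at 0.29 and 0.24. The death receptor FAS read 0.53, 0.40 and 1.04 in 5-FU against 0.06 and 0.25 (matched difference 0.57, interval 0.08 to 1.05, adjusted p = 0.0837), and the BH3 protein gene PMAIP1 differed by 0.36 (adjusted p = 0.0817). Both missed the threshold. XPC, PPM1D, EI24, CCNG1, FAS and PMAIP1 were chosen after their values were seen.

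**Figure D3:**
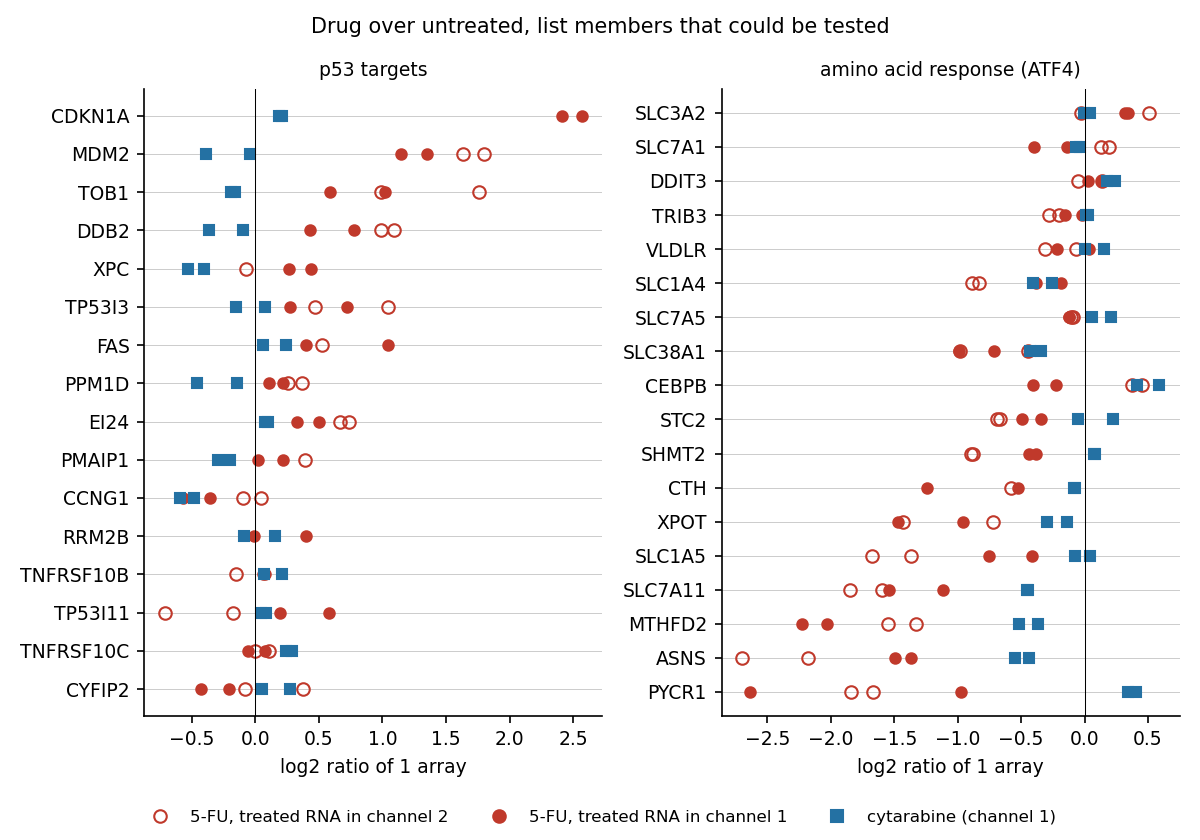
Log2 ratio over untreated on each array (x axis) for testable members of the p53 target and amino acid response lists, with 5-FU as circles (open for treated RNA in channel 2, filled for channel 1) and cytarabine as squares. CDKN1A and MDM2 lie above 1 on every 5-FU array that has a value and below 0.3 in cytarabine; ASNS, MTHFD2 and SLC7A11 lie below -1 on every 5-FU array and above -0.6 in cytarabine.

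Genes of the amino acid response were lower in 5-FU. In this response the transcription factor ATF4 raises genes for amino acid synthesis, uptake and tRNA charging when amino acids run short. Of 34 genes listed, 20 are on the array and 17 were tested: 10 were lower and 0 higher, with a median of -0.45 (-0.57 in 5-FU and 0.02 in cytarabine), beside 17.9% lower among all features. All 10, which include MTHFD2 and SHMT2 described above, were lower in the matched comparison too, beside 13% of all features lower in both. The matched comparison called 11 of 18 lower and 1 higher, beside 15.6% and 10.8% of all features. Without each of the 4 replicates in turn the count of lower genes was 9 or 10, not always of the same genes, with 1 higher without 5-FU replicate 1.

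ASNS, which makes asparagine from aspartate, read -2.70 and -2.18 with treated RNA in channel 2 and -1.50 and -1.36 in channel 1, against -0.44 and -0.55 in cytarabine (-1.44 ± 0.11, adjusted p = 6.04e-05). Its promoter is shown because it holds a well-known element of this response. The element TGATGNAA, where N is any base, was searched on both strands of the 250 bases before the annotated start (RefSeq, GRCh38.p14, the start listed earliest for a gene). The ASNS window lies at chr7:97872409-97872658 on the minus strand, upstream of the transcript, and holds 1 match on the strand of the gene, beginning at position -68 from the start. Capitals mark it.
ASNS: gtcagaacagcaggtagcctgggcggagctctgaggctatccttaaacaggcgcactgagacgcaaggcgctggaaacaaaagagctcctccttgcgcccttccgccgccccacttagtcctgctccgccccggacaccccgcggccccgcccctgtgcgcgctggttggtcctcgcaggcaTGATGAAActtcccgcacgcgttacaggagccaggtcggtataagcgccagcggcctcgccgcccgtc
The element is in 870 of 27305 promoters of that length (3.19%) and in 3 of the 27 listed genes that matched by symbol (11.1%), namely ASNS, ATF3 and CHAC1. Of the 10 lower genes 7 matched, and ASNS alone held it. A match is a description of letters and not a site of binding.

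PYCR1, which makes proline, had the largest difference among genes lower in both comparisons without overlap. It read -1.84, -1.67, -2.64 and -0.97 in 5-FU and 0.35 and 0.41 in cytarabine (-2.16 ± 0.23, adjusted p = 0.000269), with -0.65 and -0.63 in cisplatin. Among carriers, the cystine exchanger SLC7A11 read -1.60, -1.85, -1.12 and -1.54 against -0.45 and -0.44 (-1.08 ± 0.11, adjusted p = 0.000222), and the glutamine carrier SLC1A5 -1.68, -1.37, -0.76 and -0.41 against 0.04 and -0.08 (-1.03 ± 0.11). All these arrays lay below both cytarabine arrays.

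XPOT, which exports tRNA from the nucleus, was lower by -0.93 ± 0.19 (adjusted p = 0.00699; 0.0501 without cytarabine replicate 2). The secreted glycoprotein STC2 was lower by -0.63 and the glutamine carrier SLC38A1 by -0.40, the latter with adjusted p = 0.0544 without 5-FU replicate 2. The transcription factor CEBPB was lower by -0.45, but its orientations differed: 0.45 and 0.37 in channel 2 and -0.41 and -0.23 in channel 1, against 0.59 and 0.41. Its call ended without 5-FU replicate 1 (-0.43) or cytarabine replicate 1 (-0.36). The pathway regulators DDIT3 (-0.15) and TRIB3 (-0.18) did not pass. SLC3A2, the heavy chain that pairs with SLC7A11 and SLC7A5, differed by 0.26 (adjusted p = 0.0848) and passed only in the matched comparison (0.31, adjusted p = 0.0345). SLC1A5, XPOT, STC2, SLC38A1, CEBPB, DDIT3, TRIB3 and SLC3A2 were chosen after their values were seen.

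Some ribosomal protein genes were lower in 5-FU. Of 14 cytosolic ribosomal protein genes tested, 6 were lower and 0 higher (median -0.18), beside 17.9% lower among all features, and all 6 encode large-subunit proteins (2 were higher without 5-FU replicate 1). The whole list lay below untreated in both treatments, with a median of -0.56 in 5-FU and -0.38 in cytarabine. RPL3 read -1.47, -1.61, -1.08 and -1.66 in 5-FU and -0.27 and 0.02 in cytarabine (-1.33 ± 0.13, adjusted p = 0.000126). RPL10A read -1.53, -1.89, -1.29 and -1.40 against -0.39 and -0.32 (-1.17 ± 0.09). RPL12 (-0.98), RPL17 (-0.66) and RPL14 (-0.64) were lower in both comparisons as well.

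RPL28 passed only the averaged comparison, and its call (-0.23) ended without any of the 4 replicates or a replicate of paclitaxel or cytochalasin D. RPL11 (-0.06), RPS20 (0.15), RPS4X (0.20) and RPS3A (0.22) did not pass. That large-subunit genes differ from small-subunit genes was not tested. RPL14, RPL28, RPL11, RPS20, RPS4X and RPS3A were chosen after their values were seen. Probes for ribosomal proteins, tubulins, actins and the UGT1A family may not separate near-identical copies, since probe sequences were not used here.

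Of 19 translation factors 7 were lower and 2 higher, beside 17.9% and 11.6% of all features, and 6 of the 7 were lower in both comparisons, whereas neither higher call passed both. EIF3E, a subunit of the initiation factor eIF3, read -0.80, -0.96, -1.99 and -1.60 in 5-FU against -0.43 and -0.49 (-0.88 ± 0.09, adjusted p = 0.000169). The eIF3 subunits EIF3B (-0.79) and EIF3F (-0.63) and the elongation factor EEF1B2 (-0.57) were lower too. The 2 higher calls were EIF2S2 and EIF5, the latter at 0.43 in the averaged and -0.44 in the matched comparison, so its direction depends on the orientation. Both higher calls ended without either cytarabine replicate, and 1 without 5-FU replicate 1 or a replicate of cisplatin. Of 6 aminoacyl-tRNA synthetases 3 were lower and 0 higher. YARS1 was lower by -0.49 ± 0.08 (adjusted p = 0.00193), IARS1 by -0.43, which ended without 5-FU replicate 2 (-0.40) or cytarabine replicate 1 (-0.38). AARS1 overlapped between the treatments, at 0.03, 0.75, -1.18 and -0.81 in 5-FU and 0.07 and 0.51 in cytarabine, and its call ended without 5-FU replicate 1 (-0.32) or cytarabine replicate 2 (-0.37), and, with its value of -0.60 unchanged, without any replicate of the other 3 drugs. EIF2S2 and EIF5 were chosen after their values were seen.

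Mitotic genes were lower in 5-FU more often than higher, from different starting points. Of 12 genes of G2 and mitosis tested 5 were lower and 1 higher (median -0.31), beside 17.9% and 11.6% of all features, and of 16 in the matched comparison 8 were lower and 1 higher, beside 15.6% and 10.8%. BIRC5, or survivin, which serves the chromosomal passenger complex, read -1.41, -0.97, -1.11 and -1.12 in 5-FU and 0.23 and 0.10 in cytarabine (-1.32 ± 0.09, adjusted p = 2.71e-05). The spindle kinase AURKA was below untreated in both treatments, at -1.73, -1.96, -1.44 and -1.58 in 5-FU and -0.58 and -0.73 in cytarabine (-1.02 ± 0.09, adjusted p = 9.39e-05). The kinesin KIF2C showed the other pattern, with 5-FU near 0 (0.04, -0.30, 0.04 and -0.13) and cytarabine at 0.52 and 0.82 (-0.76 ± 0.14, adjusted p = 0.00373). KIF2C also read 1.02 and 0.92 in cisplatin, and a mean of 0.45 over paclitaxel and cytochalasin D.

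FOXM1, the transcription factor of the G2 programme, resembled KIF2C in the matched comparison: -0.12 and 0.18 in 5-FU against 0.80 and 0.77 in cytarabine (-0.75, adjusted p = 0.00511). CDK1 was lower there by -0.66 (adjusted p = 0.00679), but its channel 2 value of -0.38 lay between the cytarabine arrays (-0.36 and -0.39), against -1.23 and -0.85 in channel 1. PLK1, the kinase that drives entry into mitosis, went the other way and was lower in cytarabine: -0.32, -0.37, -0.42 and -0.42 in 5-FU and -0.81 and -0.74 in cytarabine (0.40 ± 0.08, adjusted p = 0.00709). Quantile normalization ended the PLK1 call (0.21). HMMR was lower by -0.53, but 1 of its 2 probes read 0.26. AURKB was lower by -0.46 in the averaged comparison only a call that ended without 5-FU replicate 1 (-0.48) or 2 (-0.43) or cytarabine replicate 1 (-0.33). CCNE1, the cyclin of the G1 to S transition, read -0.70 and -0.82 on the channel 1 arrays of 5-FU and -1.25 and -1.17 in cytarabine (0.45, adjusted p = 0.0373), a call that ended without any of these 4 arrays and also, with its value unchanged, without a replicate of cisplatin or cytochalasin D. FOXM1, CDK1, PLK1 and AURKB were picked once their values had been seen.

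Of 11 DNA replication genes with all 6 values 2 were lower and 0 higher, a share near the 17.9% of all features, and neither passed both comparisons. The 2, the helicase subunit MCM7 (-0.40) and the clamp loader subunit RFC2 (-0.39), lost their calls without either cytarabine replicate or 5-FU replicate 1, and MCM7 also without 5-FU replicate 2; without that replicate other genes could be tested, and 4 were lower and 1 higher. With the 25 genes of the matched comparison 7 were lower and 1 higher, beside 15.6% and 10.8% of all features. POLA1, the catalytic subunit of the polymerase that primes DNA synthesis, read -0.45 and -0.78 in 5-FU and 0.10 and 0.11 in cytarabine (-0.72, adjusted p = 0.00317). TOP2B, a topoisomerase, was lower by -0.88 and TIMELESS, a fork protection protein, by -0.45. PRIM1, the primase subunit bound to POLA1, was the one that was higher, at -0.32 and -0.62 against -0.84 and -0.95 (0.43, adjusted p = 0.0297), and its call ended without 5-FU replicate 1 (0.28) or either cytarabine replicate (0.48 and 0.37). The genes of this paragraph were chosen after their values were seen.

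Among 10 genes of damage signalling and repair 3 were lower and 0 higher, beside 17.9% lower among all features. All 3 passed both comparisons without overlap between the groups, where 26.8% of all features also lay wholly below (1 was higher without 5-FU replicate 2). APEX1, the endonuclease of abasic sites, read -0.82 on both channel 2 arrays and -0.88 on the higher of the channel 1 arrays of 5-FU, and 0.00 and 0.03 in cytarabine (-0.89 ± 0.08, adjusted p = 9.81e-05). PARP1, which binds strand breaks, read -0.88, -0.92, -1.01 and -0.88 against -0.02 and -0.06 (-0.88 ± 0.09, adjusted p = 0.000191), and MSH6, a mismatch sensor, was lower by -0.78 ± 0.08. For APEX1 and PARP1 the arrays of both orientations read alike, and cytarabine lay near 0.

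In the matched comparison 6 of 17 repair genes were lower and 1 higher, beside 15.6% and 10.8% of all features. The glycosylase MPG read -1.04 and -1.93 in 5-FU and 0.27 and 0.51 in cytarabine (-1.88, adjusted p = 0.00234). PRKDC, the kinase of end joining, was lower by -1.24, but its channel 2 value of 0.38 opposes the -1.16 and -1.65 of channel 1. ATM, a kinase activated by broken DNA, was the higher one. It read 0.08 and -0.16 in 5-FU and -1.53 and -1.69 in cytarabine (1.57, adjusted p = 0.000163), beside -0.71 and -0.86 in cisplatin and a mean of -1.30 over paclitaxel and cytochalasin D. The naming rule does not cover MPG, PRKDC and ATM, which were chosen with their values seen. Of 5 histone and chromatin genes tested in the averaged comparison 3 were lower and 0 higher, beside 17.9% and 11.6% of all features. The counts changed when single replicates were left out. The histone variant gene H2AZ2 had the largest difference of the 3 (-1.11 ± 0.15, adjusted p = 0.000866). H3-3B (-0.48) overlapped between the treatments, and HMGB1 (-0.62) has 1 probe that read 0.01.

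The largest positive differences were of 2 kinds. HMOX1, which degrades haem and responds to oxidative stress, read 2.93, 2.62, 2.13 and 2.13 in 5-FU and 0.20 and 0.14 in cytarabine, a difference of 2.28 ± 0.11 (4.86-fold, adjusted p = 6.02e-06). GM2A, a lysosomal activator of ganglioside breakdown, read 2.95, 1.42, 1.23 and 0.90 against -0.29 and -0.21 (1.87 ± 0.24, adjusted p = 0.000666). In both genes cytarabine lay near untreated, and the GM2A value of the channel 2 array of replicate 1 stood apart from its other 3. Both also lay near 0 in cisplatin, at -0.02 and 0.15 for HMOX1 and -0.46 and -0.14 for GM2A.

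In the other 10 of the 12 largest, cytarabine was far below untreated. UGT1A10, a glucuronosyltransferase, read 0.07, 0.33, 0.50 and 0.69 in 5-FU and -1.88 on both cytarabine arrays (2.28 ± 0.11, adjusted p = 6.02e-06). PZP, a protease inhibitor of plasma, read 0.08, 0.13, 0.07 and 0.46 against -2.07 and -1.90 (2.16 ± 0.15), and the carboxypeptidase gene CPVL -0.02, -0.09, -0.10 and -0.21 against -2.09 and -2.13 (2.01 ± 0.13). These 3 were low in every other drug as well: their means over paclitaxel and cytochalasin D were -1.62, -1.76 and -1.65, and their cisplatin arrays lay between -1.99 and -1.02.

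MRNIP, which binds the MRN complex at double-strand breaks, had the largest difference of the 12, 2.40 ± 0.12 (adjusted p = 6.02e-06), with 0.92, 0.36, 0.64 and 0.84 in 5-FU and -1.54 and -1.89 in cytarabine. It stood clearly above untreated in 5-FU and clearly below it in cytarabine. Its cytarabine ratio was below the mean of paclitaxel and cytochalasin D by -0.80 (adjusted p = 0.0248). The alcohol dehydrogenase ADH4 (2.04), the zinc finger gene ZNF581 (1.91), the ubiquitin ligase CBLB (1.90), the elongation factor EAF1 (1.86), the phospholipid transporter ABCB4 (1.74) and the ataxin gene ATXN1 (1.71) complete the 12, each with cytarabine between -2.21 and -1.35. Their means over paclitaxel and cytochalasin D lay between -1.64 and -0.98. ADH4, PZP and UGT1A10 belong to a list of 14 liver genes, of which 10 are on the array and 4 were tested. Of these, 3 were higher and 1, APOA2, was lower (-0.69), beside 11.6% higher and 17.9% lower among all features. APOA2 was chosen after its values were seen, and its call ended without 5-FU replicate 1 or cytarabine replicate 2. No level of these transcripts can be read from ratios, and the part of faint signal in these values was not tested.

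**Figure D4:**
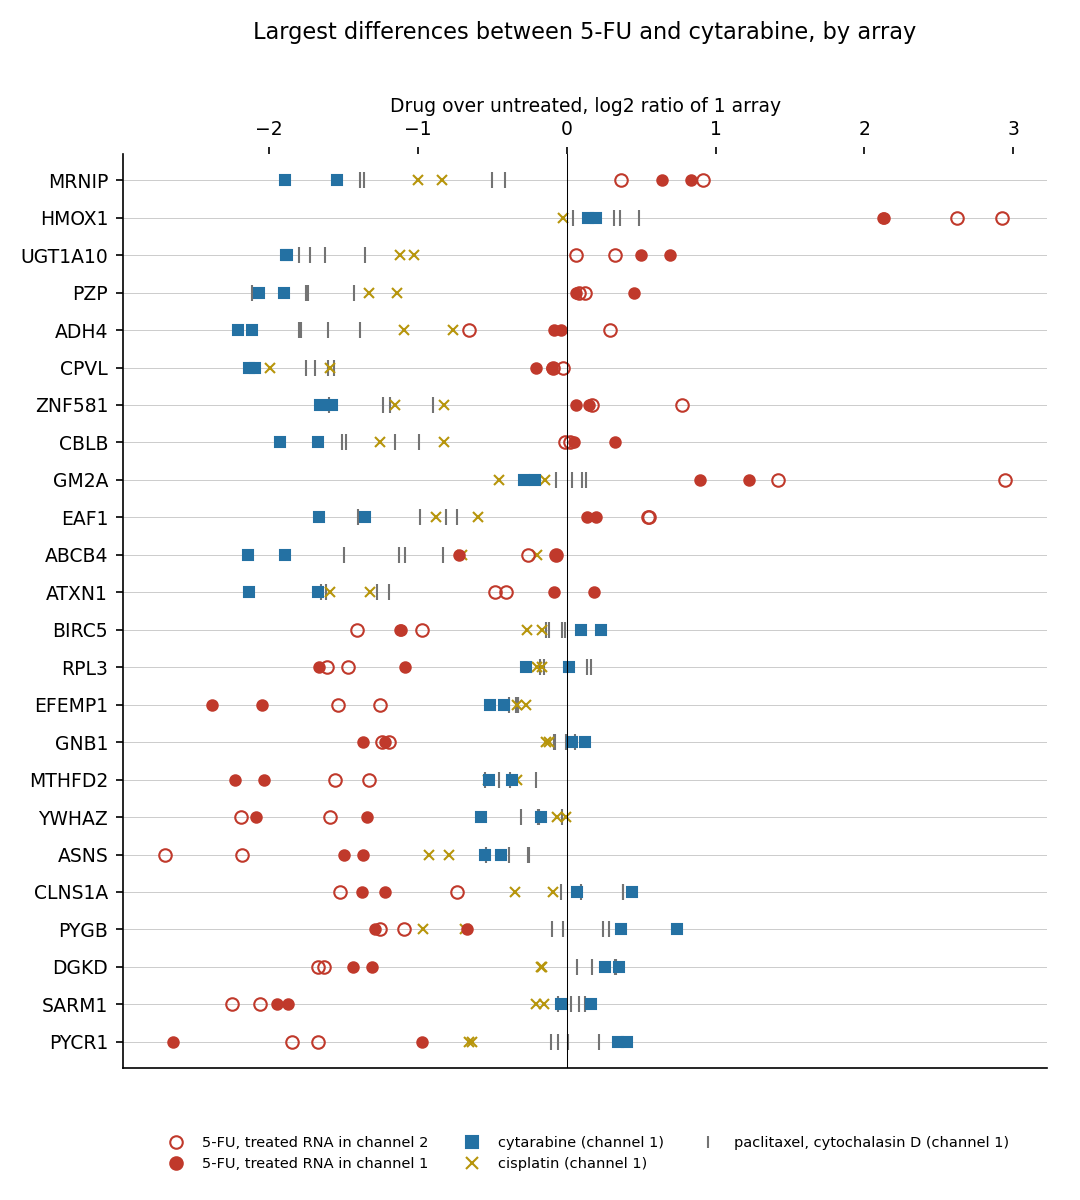
Log2 ratio over untreated on each array (x axis) for the 12 largest differences in each direction, with 5-FU as circles (open for treated RNA in channel 2, filled for channel 1), cytarabine as squares, cisplatin as crosses, and paclitaxel and cytochalasin D as ticks. In UGT1A10, PZP and CPVL the ticks lie beside the cytarabine squares and 5-FU lies near 0, whereas in HMOX1, GM2A, SARM1 and DGKD the 5-FU circles stand away from all other arrays.

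The largest negative differences lay mostly on the 5-FU side. SARM1, an enzyme that cleaves NAD, read -2.06, -2.25, -1.94 and -1.87 in 5-FU and -0.04 and 0.16 in cytarabine (-2.09 ± 0.08, adjusted p = 2.84e-06). DGKD, a diacylglycerol kinase, read -1.67, -1.63, -1.43 and -1.30 against 0.26 and 0.35 (-1.81 ± 0.07, adjusted p = 2.84e-06). The G protein subunit gene GNB1 read -1.24, -1.19, -1.22 and -1.37 against 0.12 and 0.04 (-1.33 ± 0.07). Arrays of the 2 orientations agree closely in these 3 genes, and the cisplatin arrays and the means of paclitaxel and cytochalasin D lay between -0.20 and 0.23.

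The brain form of glycogen phosphorylase, PYGB, read -1.09, -1.25, -1.28 and -0.67 against 0.37 and 0.74 (-1.63 ± 0.14), with -0.68 and -0.96 in cisplatin. The chloride channel and splicing assembly protein gene CLNS1A was lower by -1.47 ± 0.19 (adjusted p = 0.000608). The adaptor protein gene YWHAZ, of the 14-3-3 family, read -1.59, -2.18, -1.34 and -2.09 against -0.58 and -0.17 (-1.42 ± 0.20, adjusted p = 0.00109). The matrix protein gene EFEMP1 read -1.25 and -1.53 in channel 2 and -2.38 and -2.05 in channel 1, against -0.52 and -0.42 (-1.33 ± 0.07). PYCR1, ASNS, MTHFD2, RPL3 and BIRC5, described above, complete these 12.

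Stress and signalling genes were split between directions. Of 12 genes of heat shock and the chaperonins 4 were higher and 5 lower, beside 11.6% and 17.9% of all features. The constitutive chaperone HSPA8 read 0.89, 0.95, 0.32 and 0.36 in 5-FU and -0.43 and -0.74 in cytarabine (1.22 ± 0.10, adjusted p = 8.83e-05), and its cochaperone BAG1 0.82, 0.98, 0.85 and 0.50 against -0.10 and -0.03 (0.85 ± 0.10). The chaperonin genes CCT4, cytosolic, and HSPD1, mitochondrial, were lower by -0.92 ± 0.12 and -0.85 ± 0.09, with HSPD1 below -1 on all 5-FU arrays and at -0.66 on both cytarabine arrays. The count of 5 lower became 3 without 5-FU replicate 1 and 2 without cytarabine replicate 2. In the oxidative stress list 4 of 14 were higher and 3 lower: beside HMOX1, the glutathione synthesis subunit GCLM was higher by 0.50 (0.19 and not passing with 1 of its 2 probes), and the mitochondrial peroxidase PRDX3 (-0.81) and the metallothionein MT1X (-0.72) were lower.

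Of 6 NF-kB targets tested 4 were higher and 1 lower (median 0.71), beside 11.6% and 17.9% of all features. In the matched comparison 4 of 13 were higher and 1 lower (median 0.31), beside 10.8% and 15.6%. The lower one was CXCL3 (-0.34; lost without either 5-FU replicate or cytarabine replicate 2). IER3, an early response gene that p53 and NF-kB both induce, read 1.67, 1.64, 1.48 and 1.61 in 5-FU and 0.24 and 0.23 in cytarabine (1.37 ± 0.09, adjusted p = 2.51e-05). The chemokine gene CXCL8 read 1.01 and 0.79 in channel 2 and -0.20 and 0.17 in channel 1, against -0.59 and -0.74 (1.11 ± 0.09, matched 0.65). IL6 (0.62) and SOD2 (0.79) passed the averaged comparison only, and read 0.31 (adjusted p = 0.087) and 0.21 (adjusted p = 0.379) in the matched one. Both IL6 and SOD2 are outside the naming rule and were picked with their values seen.

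Of 12 immediate early and stress regulators 4 were higher and 3 lower, beside 11.6% and 17.9% of all features. The kinase SGK1 (1.38 ± 0.15, adjusted p = 0.000283) read 0.17, 0.64, -0.39 and 0.02 in 5-FU and -1.17 and -1.38 in cytarabine, with a mean of -0.97 over paclitaxel and cytochalasin D. The phosphatases of MAP kinases moved in opposite directions. DUSP6 was higher at 0.64 ± 0.13, from -0.90 and -1.13 in cytarabine, and lost its call without cytarabine replicate 2 (0.53). DUSP4 was lower at -0.89 ± 0.19, from 0.80 and 0.37 in cytarabine, and lost its call without 5-FU replicate 2 (-0.69) or cytarabine replicate 1 (-0.68). DUSP2 was lower at -0.69. The AP-1 gene FOSL2 was higher at 0.80, a call that ended without 5-FU replicate 2 (0.64) or cytarabine replicate 1 (0.60). The 3 lower became 1 without 5-FU replicate 2 or cytarabine replicate 1. DUSP6 and DUSP2 were chosen after their values were seen.

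Cytoskeletal, matrix and glycolytic genes are read against all features, of which 11.6% were higher and 17.9% lower. Of 18 genes of actin, targets of the transcription factor SRF and adhesion, 8 were lower and 1 higher (2 higher without 5-FU replicate 2). CCN2, a matricellular protein, read -1.23, -1.17, -1.43 and -1.53 in 5-FU and -0.02 and -0.11 in cytarabine (-1.28 ± 0.08, adjusted p = 1.89e-05). The intermediate filament gene VIM was lower by -1.08 ± 0.12. ZYX (-0.94) and ACTN1 (-0.89), proteins of focal adhesions, lay above untreated in cytarabine, at 0.45 and 0.74 and at 0.42 and 0.65. ACTB differed by -0.14 (interval -0.32 to 0.05) and passed in the matched comparison only (-0.37, adjusted p = 0.043), whereas TUBB differed by -0.01 (interval -0.20 to 0.18, adjusted p = 0.922).

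Of 16 matrix and integrin genes 4 were lower and 0 higher (2 higher without 5-FU replicate 2, 1 without a replicate of cytochalasin D), among them COL5A2 (-0.87 ± 0.12) and FN1 (-0.49 ± 0.09). In glycolysis and hypoxia 3 of 13 were lower and 2 higher, and the shares of the matrix and glycolysis lists are near those of all features. The phosphofructokinase PFKP (-1.02 ± 0.09) and the isomerase GPI (-0.82 ± 0.09) were lower, with cytarabine near 0. The pyruvate dehydrogenase kinase PDK1 was higher, at -0.27, -0.09, 0.09 and 0.02 in 5-FU against -1.17 and -1.62 in cytarabine (1.33 ± 0.13, adjusted p = 0.000158). P4HA1, the other higher one (0.29), lost its call without 5-FU replicate 1 or 2, cytarabine replicate 2 or a replicate of cytochalasin D. Of 20 splicing factors and RNA-binding proteins 4 were lower and 0 higher, HNRNPA1 (-1.10), SFPQ (-0.91), HNRNPU (-0.73) and SRSF9 (-0.70), all in both comparisons; without 5-FU replicate 2, which lets more genes be tested, 9 were lower and 2 higher. In purine metabolism, IMPDH2, which commits purines to guanine nucleotides, was the 1 of 8 that was lower (-0.80 ± 0.12, adjusted p = 0.00164).

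**Figure D5:**
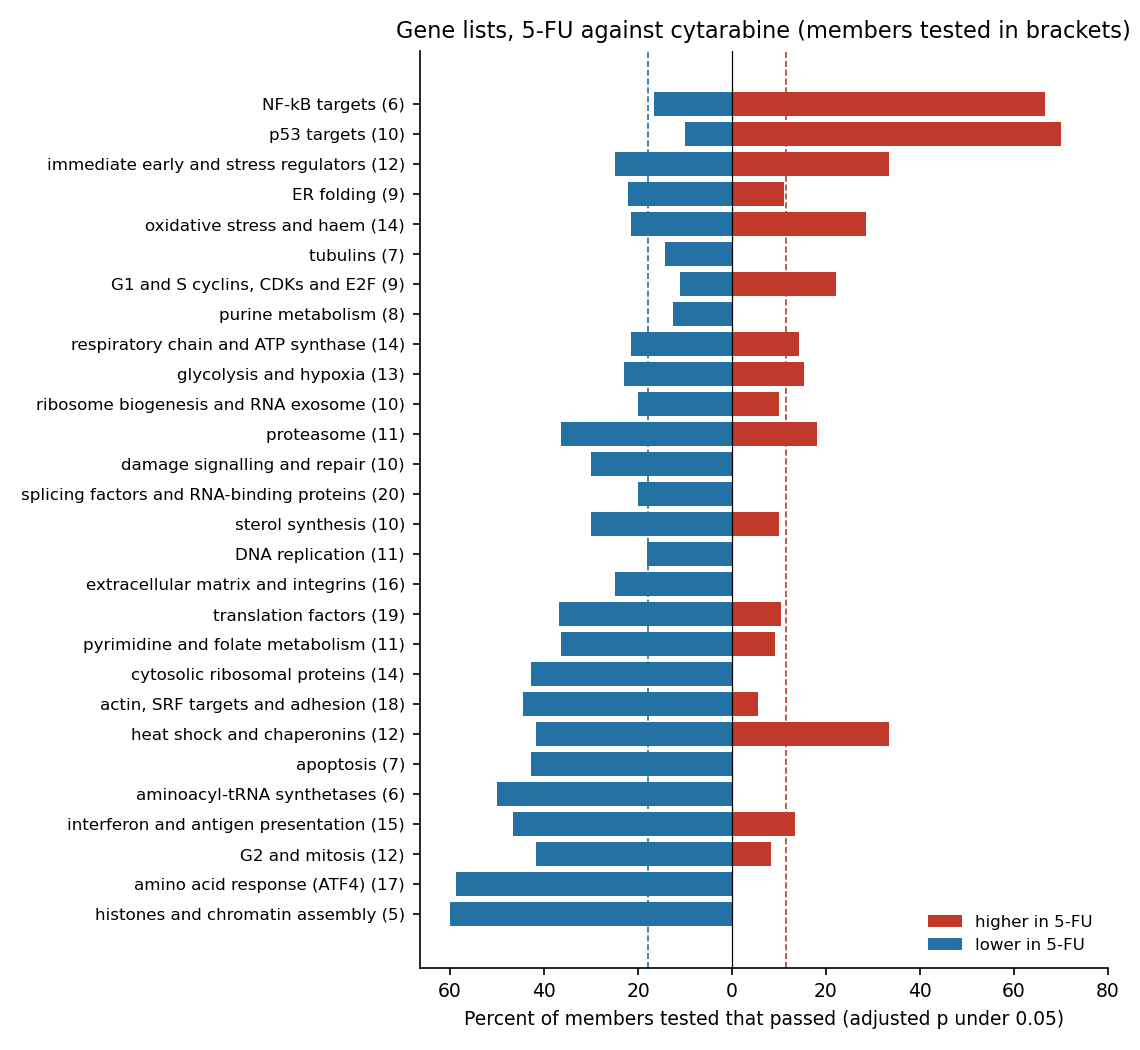
Share of the tested members of each of the 28 gene lists that were higher (red, to the right) or lower (blue, to the left) in 5-FU than in cytarabine, in percent, ordered by median difference with the number tested in brackets. Dashed lines mark 11.6% higher and 17.9% lower among all 3574 features; p53 and NF-kB targets reach furthest right, and histone and amino acid response genes furthest left.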

How the data were processed

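The deposited table holds 1 log ratio of the channels per probe and array, taken here as log2. How the authors normalized and filtered spots, the log base and the numerator of the ratio were not given in the sources used here. Doses, times and channels are those of the labels, and so are replicate numbers where a label gives one. For cytarabine, cisplatin, paclitaxel and cytochalasin D, 1 array each has no number in its label and was numbered 1 here. Of 8170 probes 5930 match 1 gene, 79 several and 2161 none in the platform annotation; probes of a gene were averaged (407 of 5499 genes have several) and unnamed probes kept as features, 7739 in all. Arrays were centred on their medians and turned to treated over untreated. limma 3.58.1 in R 4.3.3 (lmFit, eBayes) was fitted to 10 replicates, 2 per drug, which share 1 estimate of the spread, or to the 10 arrays with treated RNA in channel 1. It was tested on simulated data. The members and lists were chosen with earlier results of these data known. Named genes are the 12 largest differences each way that pass both comparisons without overlap, up to 4 members per list passing both, and fixed genes of drug metabolism, p53, cyclins and the cytoskeleton; CCNE2 and GAPDH have no named probe, and GDF15 has no value. Alternatives were no centring, scaling, quantile normalization, other handling of missing values, probes and orientations, robust moderation, a minimum difference, a replicate block and leaving out each replicate.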

Additional observations from a re-analysis of the deposited data

How the results depend on the processing

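Fitted with a replicate block, the averaged comparison called 399 higher and 616 lower and the matched one 519 and 733. Deviations of same-numbered 5-FU and cytarabine replicates from their group means had r = -8.59e-05 over 3570 features. The number 1 of cytarabine was assigned here, and whether replicates share a culture, a day or untreated RNA was not tested. A minimum absolute difference of 1 left 64 higher and 58 lower in the averaged comparison and 139 and 108 in the matched one. With only the arrays of the 2 drugs, 263 features were higher in the averaged comparison, and 252 higher and 303 lower in the matched one. In that setting 24 calls of named genes ended, among them TP53I3, TNFRSF10C, COL7A1, CD2 and, in the matched comparison, CDK1. Probes with all 12 values gave 342 higher in the matched comparison, fewer genes being tested. Leaving out each replicate gave 249 to 393 higher and 403 to 617 lower in the averaged comparison, and 354 to 580 and 430 to 749 in the matched one, lowest without cytarabine replicate 2; a replicate left alone borrows its spread from the other groups. The counts of all other settings lay within 1.5 times. With single probes HMMR (0.26), HMGB1 (0.013) and PSMB2 (-0.051) reversed; the cause was not tested. Of 3266 refitted values of named genes 3016 kept their direction and side of the threshold, 240 lost their call and 7 gained one. Of 144 named genes called, 88 kept the call in every setting where they could be fitted. With every array as its own observation 24 calls ended, and with scaling to the same spread 14. List medians moved by more than their replicate spread in 115 of 704 refits. Signal over background is unknown, since spot intensities were not used here, and 21.5 to 46.7% of values are missing on the 5-FU arrays.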

Other observations

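Further lists were read in the same way, beside 11.6% higher and 17.9% lower among all features. Of 15 genes of the interferon response and antigen presentation 7 were lower and 2 higher, and these counts changed when single replicates were left out. Of 21 in the matched comparison 4 were lower and 3 higher, shares near the 15.6% and 10.8% of all features there. Only ISG20 (-0.49) and UBE2L6 (-0.39) were lower in both comparisons. IFIT3, an interferon-induced protein, was higher by 0.72 ± 0.09 (adjusted p = 0.000587), with 5-FU arrays at 0.59, 0.63, 0.44 and 0.21 and cytarabine at -0.27 and -0.23. IFI16, a DNA sensor, was higher by 0.31, a call that ended without either 5-FU replicate (0.30 and 0.32) or without cytarabine replicate 2 (0.31).

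Of 14 genes of the respiratory chain and ATP synthase 3 were lower and 2 higher (1 higher without either 5-FU replicate or without cytarabine replicate 2). NDUFS5 was higher by 0.47 ± 0.09 while NDUFV1, another complex I subunit, was lower by -0.59 ± 0.08. Of 7 tubulin genes 1 was lower, TUBB2A (-0.80 ± 0.15), and 0 higher (1 higher without cytarabine replicate 1). In endoplasmic reticulum folding HSP90B1 was lower (-0.49) and SEL1L higher (0.38), the latter call ending without 5-FU replicate 1 (0.34) or cytarabine replicate 1 (0.37) or 2 (0.40). The counts of the lists for the proteasome, sterol synthesis, ribosome biogenesis, G1 and S cyclins, and apoptosis moved by over 1.5 times when single replicates were left out, and are shown only in the plot of list shares. Of the marker lists, the 1 epithelial gene and the 2 fibroblast genes tested had a median difference of -0.06 each. Of 2 blood cell genes CD2 was lower (-0.79; lost without 5-FU replicate 2), and SLA, tested in the matched comparison only, was higher by 2.72 (adjusted p = 0.000599), with -0.23 and 0.72 on the channel 1 arrays of 5-FU, -2.12 and -2.83 in cytarabine and -1.64 on average in paclitaxel and cytochalasin D. Its channel 2 value of -1.09 lay lower than both channel 1 values. SLA and CD2 were chosen after their values were seen.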
